A study of Mus musculus with 6 samples.

Results

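Clec2l, Vstm2b, Pigz, Whrn and Thrsp are 5 of the 17022 gene names measured in laser-dissected sensory neurons of mouse dorsal root ganglia, and all 5 were at lower levels 7 days after a crush of the sciatic nerve. They were chosen by name from the genes with the largest decreases in these same libraries, so the values of crush against sham are given for them as a description and no test is attached. The deposited table lists 15 isoforms under these names, of 60744 in all, and all 15 carried the status OK in every library. The neurons came from ganglia of lumbar levels 3, 4 and 5, on the operated side of C57Bl/6 males, which the labels call adult and give as 4 to 6 weeks old. In the crush group the nerve was crushed for 10 seconds, and in the sham group it was exposed for 10 seconds and left whole, with 3 libraries of polyadenylated RNA in each, called crush 1 to 3 and sham 1 to 3. No drug, transgene or mutation is named for either group. The sources used here do not tie the libraries to separate animals, and the spread behind every p-value, being that of these 6 libraries, may be technical. No file separates the neurons by size or tells which of them had an axon in the crushed nerve. Whether the 5 genes were expressed in large neurons alone was therefore not tested.

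Large sensory neurons have thick myelinated axons rich in neurofilament, and they report touch, vibration and the position of the limbs. When a peripheral axon is cut or crushed, sensory neurons are known to raise genes of regrowth and to lower many genes of their mature function, such as ion channels and neurofilaments. Of the 5 genes, Whrn encodes whirlin, a PDZ-domain scaffold best known from the hair bundles of the inner ear and also known from proprioceptive neurons of the mouse. Clec2l encodes a membrane protein with a C-type lectin-like domain, and Vstm2b a membrane protein with an immunoglobulin-like V-set domain. Pigz encodes an enzyme of the endoplasmic reticulum that adds a side-branch mannose to the glycosylphosphatidylinositol (GPI) anchor, the lipid tail by which many surface proteins are held in the membrane. Thrsp, also called Spot 14, is a thyroid-hormone-responsive regulator of fatty acid synthesis, best known from liver and fat.

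Expression was given as FPKM, the fragments of a transcript relative to its length and to all mapped fragments of the library, as computed by the authors, so the depth of a library is unknown. Pan-neuronal markers were high in every library, summing over 15 genes to between 7465 and 8689 FPKM in crush and between 6505 and 8648 FPKM in sham. Markers of satellite and Schwann glia were also present, at 3183 to 3485 FPKM in crush and 3086 to 4258 FPKM in sham, while those of muscle and fat summed to at most 2.13 FPKM in any library. Over the 12289 genes with a mean of at least 1 FPKM, sham 2 correlated with sham 1 and sham 3 at r = 0.978 and 0.981, whereas sham 1 and sham 3 correlated at 0.996. Genes are not independent replicates, so these values only describe the libraries. Values without sham 2 are therefore given for each of the 5 genes.

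In the mm9 build, Clec2l lies on the plus strand of chromosome 6 from 38612710 to 38630294, and none of its exon bases lie in exons of another gene that has values. Vstm2b lies on the plus strand of chromosome 7 from 48153296 to 48190516, and 3.98% of its exon bases are also in exons of the clone-named gene AK081136 on the opposite strand. Pigz lies on the plus strand of chromosome 16 from 31940895 to 31946084. Whrn, on the minus strand of chromosome 4 from 63075938 to 63157633, and Thrsp, on the minus strand of chromosome 7 from 104561443 to 104566671, share no exon bases with another gene that has values.

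The 250 bases before the annotated start of each gene are shown because all 5 genes were lower together, and they show how unlike these promoters are in base composition. They are from RefSeq in the build GRCm38.p6, which is not the build of the values, so they were not set against the assembled starts. Capitals mark the GC box GGGCGG and the CCAAT box, on either strand; no marked matches overlap.
Clec2l, chr6:38662819-38663068, plus strand: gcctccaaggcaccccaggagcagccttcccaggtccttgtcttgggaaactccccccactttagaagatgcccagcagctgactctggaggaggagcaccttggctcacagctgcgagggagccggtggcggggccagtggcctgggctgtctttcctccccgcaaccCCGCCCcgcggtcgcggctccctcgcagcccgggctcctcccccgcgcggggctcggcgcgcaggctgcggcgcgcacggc
Vstm2b, chr7:40899028-40899277, plus strand: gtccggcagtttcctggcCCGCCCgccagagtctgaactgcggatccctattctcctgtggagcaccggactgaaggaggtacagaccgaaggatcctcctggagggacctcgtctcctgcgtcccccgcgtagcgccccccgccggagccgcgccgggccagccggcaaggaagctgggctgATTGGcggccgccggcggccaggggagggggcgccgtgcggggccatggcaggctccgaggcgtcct
Pigz, chr16:31933601-31933850, plus strand: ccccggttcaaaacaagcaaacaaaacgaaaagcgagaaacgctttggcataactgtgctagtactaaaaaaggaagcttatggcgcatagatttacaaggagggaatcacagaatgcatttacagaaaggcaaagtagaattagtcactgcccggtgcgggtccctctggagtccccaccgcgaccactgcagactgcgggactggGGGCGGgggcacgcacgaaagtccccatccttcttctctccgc
Whrn, chr4:63495992-63496241, minus strand: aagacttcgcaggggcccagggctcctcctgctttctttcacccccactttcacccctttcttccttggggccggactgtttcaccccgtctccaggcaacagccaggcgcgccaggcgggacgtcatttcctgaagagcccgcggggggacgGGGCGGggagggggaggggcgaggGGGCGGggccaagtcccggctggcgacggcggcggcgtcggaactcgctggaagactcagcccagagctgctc
Thrsp, chr7:97417551-97417800, minus strand: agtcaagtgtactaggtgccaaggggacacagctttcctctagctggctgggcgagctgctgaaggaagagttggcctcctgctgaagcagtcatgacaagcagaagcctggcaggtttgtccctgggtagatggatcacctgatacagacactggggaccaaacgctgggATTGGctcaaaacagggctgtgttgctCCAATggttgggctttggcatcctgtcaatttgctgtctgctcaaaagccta
The Clec2l and Vstm2b windows each hold 72.4% G and C and the Whrn window 69.6%, against 52.4% for Pigz and 53.6% for Thrsp and a median of 52.4% over 32851 promoter windows. Vstm2b has 26 CpG dinucleotides, Clec2l and Whrn have 21 each and Pigz has 14, whereas Thrsp has 2, against a median of 6. A GC box was found in 4 of the 5, all but Thrsp, and in 32.7% of all windows. A CCAAT box was found in 2 of the 5, Vstm2b and Thrsp, and in 33.8% of all windows. The TATA box TATAAA, the AP-1 site TGANTCA, the nuclear receptor half-site AGGTCA, the E-box CACGTG and the RUNX site TGTGGT, each searched on both strands, were found in 0 of the 5 windows. Over all windows these letters were present in 12.4%, 6.75%, 14.0%, 6.02% and 14.0%, in that order. A match of letters is a description of the sequence only.

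Clec2l was by far the most abundant of the 5. Its summed FPKM was 55.7, 39.5 and 67.1 in crush 1 to 3, against 105.1, 119.7 and 119.6 in sham 1 to 3. The highest crush value was 63.8% of the lowest sham value, so the groups did not overlap, and crush 2 was the lowest library. The mean was 54.1 ± 13.9 FPKM in crush and 114.8 ± 8.39 FPKM in sham (SD, n = 3 each, here and for all later means), which is 52.9% lower. On the scale of log2(FPKM + 1), used for all log2 changes here, the difference was -1.10, and -1.07 without sham 2.

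Vstm2b was at 4.17, 2.55 and 3.83 FPKM in crush 1 to 3, against 9.42, 10.8 and 10.1 FPKM in sham 1 to 3. As for Clec2l, crush 2 was the lowest library and sham 1 the lowest of the sham libraries. The mean was 3.52 ± 0.854 FPKM in crush and 10.1 ± 0.669 FPKM in sham, 65.2% lower, with a log2 change of -1.31 and of -1.27 without sham 2. Among the genes tested, ranked by mean FPKM within a group, Vstm2b stood at the percentile 25.2 in crush and 54.2 in sham.

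Pigz had the lowest ratio of crush to sham of the 5, and Clec2l the largest difference in FPKM. It was at 2.43, 2.61 and 1.12 FPKM in crush 1 to 3, against 7.00, 7.74 and 8.32 FPKM in sham 1 to 3. The highest crush value was 37.3% of the lowest sham value. Here crush 3 was the lowest library, unlike in the other 4 genes, which were lowest in crush 2. The mean was 2.06 ± 0.813 FPKM in crush and 7.69 ± 0.664 FPKM in sham, 73.3% lower, with a log2 change of -1.54 and of -1.54 without sham 2.

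Whrn was at 5.31, 4.18 and 5.58 FPKM in crush 1 to 3, against 10.7, 9.24 and 11.5 FPKM in sham 1 to 3. It was the one gene of the 5 whose lowest sham library was sham 2. The mean was 5.02 ± 0.743 FPKM in crush and 10.5 ± 1.14 FPKM in sham, 52.1% lower, with a log2 change of -0.93 and of -1.01 without sham 2. Thrsp was at 5.28, 4.36 and 4.73 FPKM in crush 1 to 3, against 8.40, 11.3 and 10.6 FPKM in sham 1 to 3. Its crush libraries lay close together and its sham libraries further apart, sham 1 being the lowest of them. The mean was 4.79 ± 0.463 FPKM in crush and 10.1 ± 1.52 FPKM in sham, 52.6% lower, with a log2 change of -0.93 and of -0.85 without sham 2.

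**Figure D1:**
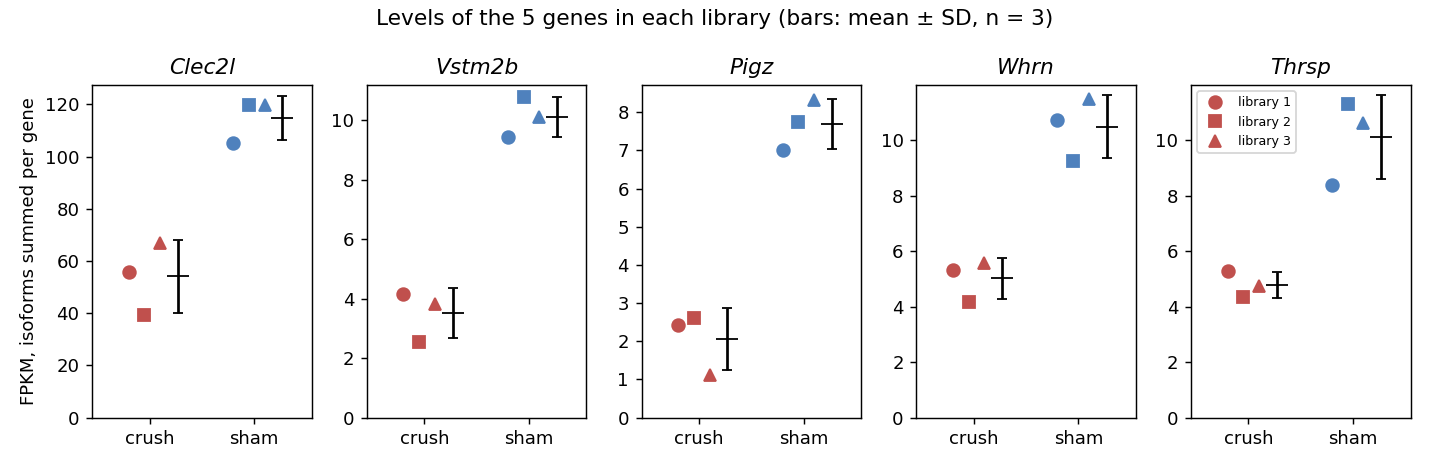
FPKM of each gene (vertical axis, isoforms summed) in crush libraries (left, red) and sham libraries (right, blue), with the symbol giving the library number and the bar the mean ± SD of 3. In each of the 5 panels all crush points lie below all sham points, with the widest relative gap in Pigz.

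In all 5 genes the crush values lay below all sham values, a separation found in 14.1% of the 12289 genes tested, against 12.2% for the opposite one, and fixed here by the choice of the genes. By the size of the decrease Pigz had rank 2, Vstm2b rank 4, Clec2l rank 5, Thrsp rank 13 and Whrn rank 14 of all genes tested. Leaving out each library in turn gave log2 changes of -1.27 to -0.90 for Clec2l, -1.42 to -1.15 for Vstm2b and -1.68 to -1.30 for Pigz, and of -1.01 to -0.83 for Whrn and -1.05 to -0.85 for Thrsp. Within the crush group the highest library was 2.33 times the lowest for Pigz, 1.70 times for Clec2l, 1.63 times for Vstm2b, 1.34 times for Whrn and 1.21 times for Thrsp. Within the sham group these ratios were 1.19, 1.14, 1.14, 1.24 and 1.35, in the same order. In bulk samples such as these, fewer cells of a type and less RNA per cell cannot be told apart.

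**Figure D2:**
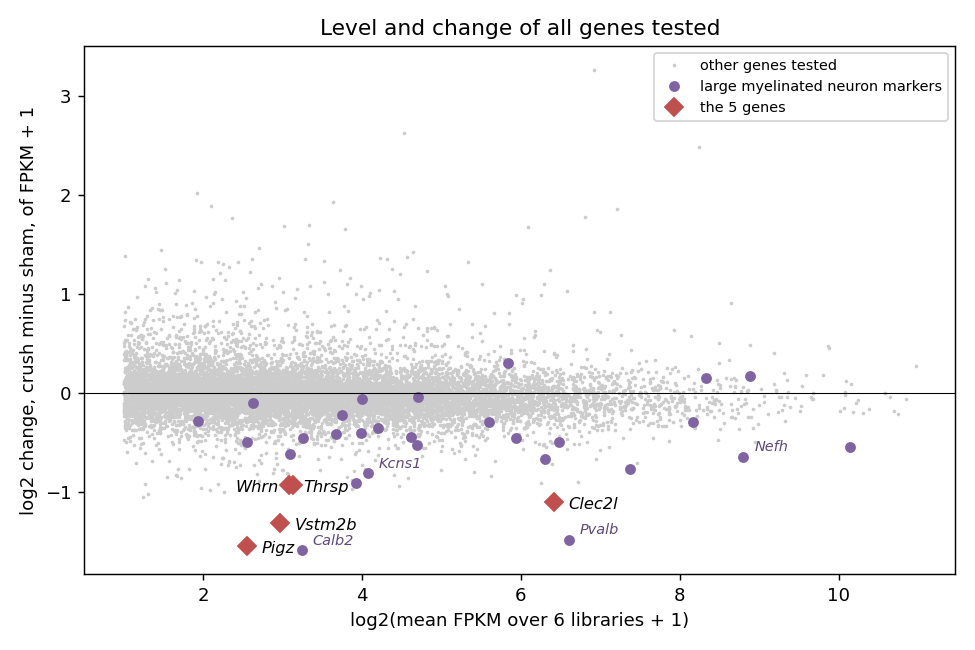
Log2 change, crush minus sham, of FPKM + 1 (vertical axis) against log2 of the mean FPKM + 1 over the 6 libraries (horizontal axis) for all 12289 genes tested, with the 5 genes as red diamonds and markers of large myelinated neurons in purple. The 5 genes lie at the lower edge of the cloud, Pigz at -1.54 and Clec2l, the most abundant, at -1.10.

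Clec2l was assembled in 3 forms of 5 exons each, which share their last 4 exons apart from the last bases and differ in where they start. The form that matches a reference transcript, with a first exon of 706 bases, was at 12.1, 9.06 and 15.5 FPKM in crush 1 to 3, against 24.8, 32.6 and 27.8 FPKM in sham 1 to 3. The most abundant form, Clec2l_j1, was at 35.5, 24.6 and 46.9 FPKM in crush, against 66.6, 69.4 and 80.7 FPKM in sham. Its first exon is 1 base long, and that base is all that sets it apart from the other forms. The form Clec2l_j2 averaged 6.22 ± 1.73 FPKM in crush and 14.2 ± 3.34 FPKM in sham. All 3 forms were lower in crush with no overlap of the groups, at ratios of 0.494 (Clec2l_j1), 0.439 (Clec2l_j2) and 0.430 (the reference form). Clec2l_j1 made up 65.3% ± 4.09 of the summed FPKM in crush and 62.9% ± 4.74 in sham, a difference smaller than the spread within either group. The share of the reference form was 21.7% to 23.1% in crush and 23.3% to 27.2% in sham, narrowly without overlap. Without Clec2l_j1 the gene summed to 18.4 ± 3.03 FPKM in crush and 42.6 ± 6.68 FPKM in sham, with a log2 change of -1.17; this sum was chosen after the data had been seen.

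Vstm2b was assembled in 4 forms, none of which carries a reference identifier. The short form Vstm2b_j4, of 3 exons, was at 1.67, 0.958 and 1.46 FPKM in crush 1 to 3, against 4.24, 6.28 and 5.22 FPKM in sham 1 to 3. It was the most abundant form in the sham libraries, at 51.7% ± 6.70 of the gene, and made up 38.5% ± 1.298 in crush, with all crush shares (37.6% to 40.0%) below all sham shares (45.0% to 58.4%). Only 103 of its 1051 bases (9.80%) lie in no other form, so these shares rest on how the authors' program assigned shared fragments. The half-width of its deposited intervals was 34.6% to 52.6% of the value. The share of the Clec2l reference form did not overlap between the groups either. How often shares separate over all isoforms was not computed. Whether the use of the forms changed was not tested. Vstm2b_j1, of 6 exons, averaged 1.23 ± 0.461 FPKM in crush and 2.95 ± 0.268 FPKM in sham. Vstm2b_j2, the form with the longest last exon (3018 bases), averaged 0.243 ± 0.0821 FPKM in crush and 0.789 ± 0.0656 FPKM in sham. The form Vstm2b_j3, which has no base of its own, was at 0.884, 0.712 and 0.453 FPKM in crush, against 1.69, 0.578 and 1.08 FPKM in sham. It was the one form of the members averaging 0.5 FPKM or more whose groups overlapped. AK081136, the gene on the opposite strand, summed to 0.180 ± 0.125 FPKM in crush and 0.672 ± 0.154 FPKM in sham and was too low to be tested.

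Whrn was assembled in 6 forms with values. The 4 that hold all or part of the exon at the start of the gene summed to 3.40, 2.59 and 3.64 FPKM in crush 1 to 3, against 6.34, 6.15 and 7.72 FPKM in sham 1 to 3. Of these, Whrn_j2 and the reference form uc008tgi.1 start inside that exon, with 1237 and 554 of its 1987 bases. The 2 that start further inside the gene, Whrn_j3 and Whrn_j6, summed to 1.90, 1.59 and 1.94 FPKM in crush, against 4.39, 3.09 and 3.75 FPKM in sham. Both sums were lower in crush without overlap, at ratios of 0.477 for the long forms and 0.483 for the short ones. The long forms held 62.1% to 65.2% of the gene in crush and 59.0% to 67.3% in sham, so their share did not differ beyond the spread between libraries. The forms share nearly all their bases: of the 4 long forms only the reference form uc008tgk.1 has bases of its own, 7 in all, so the division among them rests on how the authors' program assigned shared fragments. Of the short forms, Whrn_j3 has 103 bases of its own (5.83%) and Whrn_j6 has 35 (1.63%), with a first exon of 2 bases. Fragments from bases common to long and short forms were divided by the same assignment. Whrn_j2 was listed at 0 in every library but crush 2, at 0.331 FPKM, and Whrn_j5 reached at most 0.403 FPKM. Thrsp and Pigz have 1 form each, Thrsp as the reference transcript uc009ije.1 of 2 exons.

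**Figure D3:**
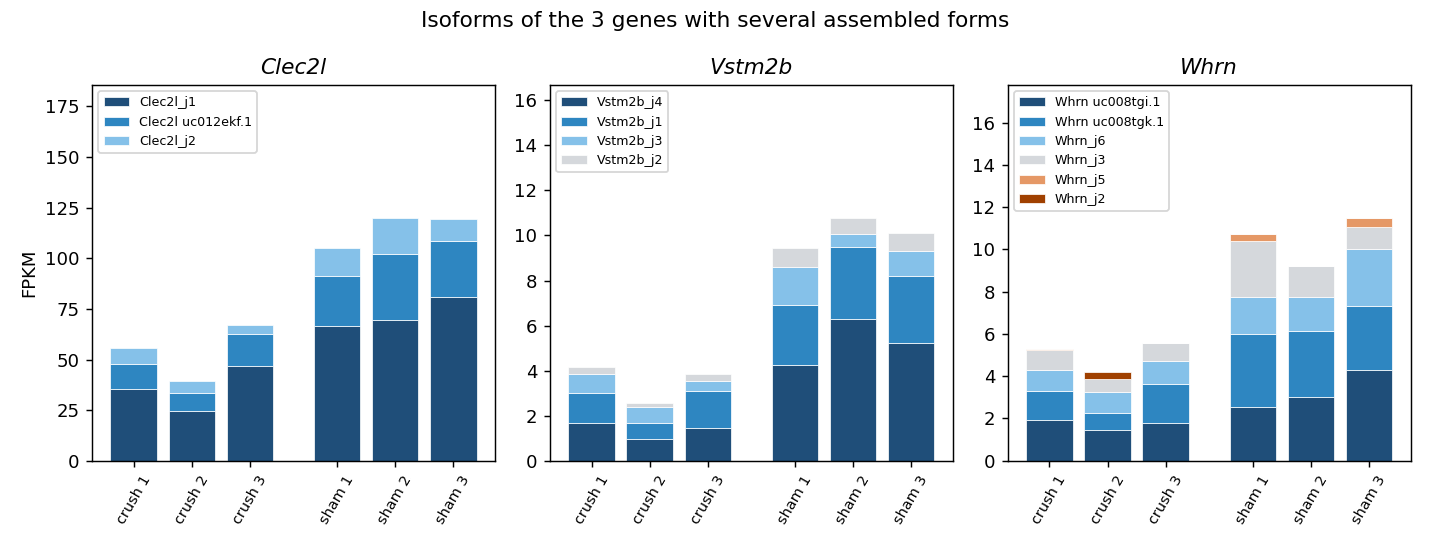
Summed bars of FPKM per isoform (vertical axis) for Clec2l, Vstm2b and Whrn in each crush library (left) and sham library (right), with 1 colour per assembled form. Within each gene most forms are shorter bars in all crush libraries, and the short form Vstm2b_j4 takes a smaller part of the gene in crush (38.5%) than in sham (51.7%). These parts rest on how fragments shared between forms were assigned.

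The authors deposited an interval with each isoform value. Of the 13 isoforms averaging 0.5 FPKM or more, 12 had crush values all below the sham values, and in 3 of these, Pigz_j1, Vstm2b_j4 and Vstm2b_j2, the highest upper bound in crush also lay below the lowest lower bound in sham. Separation of isoform values, here and in the paragraphs on single genes, follows in large part from the choice of the genes for their decrease. Its share over all isoforms was not computed. For Pigz_j1 the bounds were 3.57 and 4.98 FPKM. For Thrsp they were 6.88 and 6.10 FPKM, so that single intervals of the groups touched. In the authors' deposited table, which compares pooled estimates per isoform, Pigz had a log2 fold change of -2.08 and Thrsp one of -0.92. The 3 Clec2l isoforms had -1.04 (reference form), -0.93 (Clec2l_j2) and -0.96 (Clec2l_j1) in the authors' deposited table. In the same authors' deposited table all 6 Whrn isoforms have the test status FAIL, so the authors' comparison gives no call for Whrn. The pooled values in the authors' deposited table lie outside the range of the 3 libraries for 5 of the 15 isoforms in crush and for 9 in sham. Thus the pooled crush value of Thrsp in the authors' deposited table, 5.55 FPKM, is above the highest crush library (5.28 FPKM), and the pooled sham value of Clec2l_j1 there, 90.3 FPKM, is above the highest sham library (80.7 FPKM).

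Pigz shares 96.2% of its exon bases with an assembled transcript of its neighbour Ncbp2, a subunit of the nuclear cap-binding complex. That transcript, Ncbp2_j1, has 6 exons and 7829 bases and runs on the same strand of chromosome 16 from 31932820 to 31958550. The only Pigz bases outside it are the 76 bases of the first Pigz exon, from 31940895 to 31940970. Ncbp2 was at 10.0, 10.3 and 11.8 FPKM in crush 1 to 3, against 10.1, 12.9 and 10.2 FPKM in sham 1 to 3. Its mean was 10.7 ± 0.980 FPKM in crush and 11.1 ± 1.59 FPKM in sham, with overlapping groups (limma, log2 change -0.04, adjusted p = 0.897). The sum of Pigz and Ncbp2 was 12.8 ± 0.279 FPKM in crush and 18.8 ± 1.78 FPKM in sham, without overlap. These transcripts differ in length (2019 and 7829 bases), so this sum changes with the division of shared fragments and does not describe the locus as a whole. As FPKM times length in kilobases, Pigz was at 4.92, 5.27 and 2.27 in crush 1 to 3, against 14.1, 15.6 and 16.8 in sham 1 to 3. On that scale Ncbp2 was far larger, at 78.3, 80.5 and 92.6 in crush, against 79.1, 101.1 and 80.0 in sham. How the shared fragments were divided between both names was not tested.

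**Figure D4:**
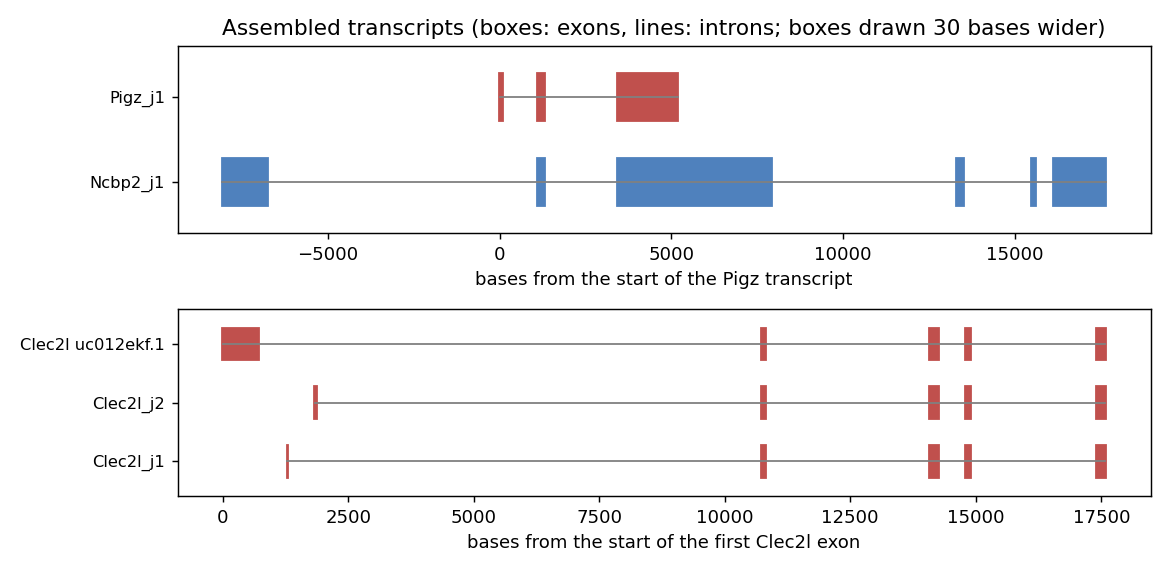
Exons (boxes) and introns (lines) of the assembled transcripts of Pigz with its neighbour Ncbp2 (top) and of Clec2l (bottom), drawn by distance in bases from the start of Pigz and of the first Clec2l exon, with boxes slightly wider than the exons. Apart from its first exon of 76 bases, Pigz lies within exons of Ncbp2_j1, and the 3 Clec2l forms differ in their first exon only, apart from 2 bases at the end.

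Several markers of large myelinated neurons fell together with lower levels of the 5 genes. Of 28 markers tested, Whrn not among them, 8 fell, 0 rose and 20 did not pass (limma, adjusted p under 0.05). Among all 12289 genes 3.78% were called, 1.39% lower and 2.38% higher. A negative log2 change was found in 54.1% of all genes tested and in 25 of the 28 markers. Their median log2 change was -0.45, against -0.02 over all genes tested. The modulatory potassium channel subunit Kcns1 was at 12.01, 9.40 and 12.5 FPKM in crush 1 to 3, against 20.8, 20.1 and 20.4 FPKM in sham 1 to 3 (log2 change -0.81, SE 0.106, adjusted p = 0.0141). The heavy neurofilament gene Nefh was at 347 ± 23.4 FPKM in crush and 543 ± 14.1 FPKM in sham (-0.64, adjusted p = 0.0147). Parvalbumin (Pvalb), a calcium-binding protein of proprioceptors, was at 53.6, 31.9 and 70.1 FPKM in crush, against 117.5, 161.8 and 144.3 FPKM in sham (-1.48, adjusted p = 0.0379). Other markers that fell included the calcium-binding protein Calb2 (-1.59), the vesicle protein Vamp1 (-0.77), the medium neurofilament Nefm (-0.55) and the sodium channel subunit Scn4b (-0.45). Thy1, Ret and Spp1, at 0.17, 0.15 and 0.30, had positive log2 changes and did not pass. The count of 8 became 0, 1 and 3 without crush 1, 2 and 3, and 0, 20 and 0 without sham 1, 2 and 3. These markers were listed with earlier results of these data known, so their direction is not independent evidence.

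The 5 genes were also set against these markers in the same library. Because the genes were chosen for large decreases, ratios below 1 and groups without overlap follow in large part from that choice, and the values are a description. Per 1000 FPKM of summed marker expression, Clec2l was at 18.2, 14.4 and 20.9 FPKM in crush 1 to 3, against 27.3, 30.4 and 30.03 FPKM in sham 1 to 3. The ratio of the group means was 0.610 for Clec2l, 0.452 for Vstm2b, 0.357 for Pigz, 0.624 for Whrn and 0.621 for Thrsp, and the groups did not overlap for any of them. Set against Nefh alone, the ratios were 0.731, 0.543, 0.426, 0.746 and 0.744, in the same order, again without overlap. The closest values were those of Thrsp, at most 15.6 in crush and at least 15.8 in sham per 1000 FPKM of Nefh. Of the 28 markers tested, Pvalb and Calb2 had log2 changes below those of Clec2l, Vstm2b, Whrn and Thrsp, and Calb2 also below that of Pigz, an order that the choice of the 5 genes largely fixes. The summed level of the 29 markers in the table, 1 of them too low to be tested, was 2743 to 3215 FPKM in crush and 3853 to 3984 FPKM in sham. Abundant genes weigh most in that sum, such as Nefm, Nefh and Thy1, with sham means of 1345, 543 and 446 FPKM.

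Of 20 markers of small-diameter nociceptors, 1 fell, 1 rose and 18 did not pass, with a median log2 change of -0.20, where 3.78% of all genes tested were called. In this list too most log2 changes were negative, 16 of the 20, where 54.1% of all genes tested had a negative one. The lysophosphatidic acid receptor Lpar3 fell to 24.4 ± 0.580 FPKM in crush, against 30.97 ± 1.13 FPKM in sham (limma, adjusted p = 0.0369), and the peptide gene Adcyap1 rose to 72.4 ± 11.9 FPKM in crush, against 40.8 ± 3.94 FPKM in sham (adjusted p = 0.0248). Both calls were lost without crush 1, 2 or 3, sham 1 or sham 3, where the list had 0 called genes. Of 15 pan-neuronal markers, 1 rose and 14 did not pass, where 2.38% of all genes tested rose; it was the growth-cone gene Gap43, at 521 ± 73.6 FPKM in crush and 276 ± 36.5 FPKM in sham (adjusted p = 0.0220). That list had 0 called genes without each of those same 5 libraries and 4 without sham 2. Markers of other cells moved as well. Of 12 macrophage markers tested, 10 rose, 0 fell and 2 did not pass, where 2.38% of all genes tested rose. The summed level of the 13 in the table, Ptprc, too low to be tested, among them, was 217 to 242 FPKM in crush and 107 to 136 FPKM in sham. The complement gene C1qc was at 20.6 ± 0.996 FPKM in crush and 9.23 ± 0.999 FPKM in sham (adjusted p = 0.00509), and the protease gene Ctss at 17.6 ± 2.22 FPKM in crush and 6.82 ± 0.305 FPKM in sham (adjusted p = 0.00509). The count of 10 became 5, 5 and 6 without crush 1, 2 and 3, and 5 without sham 3. In limma 0 of 15 glial and 0 of 11 vessel and fibroblast markers passed, with 5 of each at an unadjusted p under 0.05. The smallest adjusted p among them were 0.0958 for the Schwann cell gene Prx, at 13.4 ± 0.913 FPKM in crush and 10.5 ± 0.809 FPKM in sham, and 0.0961 for the matrix gene Lum, at 14.9 ± 1.41 FPKM in crush and 11.1 ± 1.24 FPKM in sham. Without sham 2, 2 glial and 2 vessel and fibroblast markers passed. The part of these other cells in the lower levels of the 5 genes was not tested.

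For the pathways in which these genes act, the counts of called genes are to be read against the 3.78% called among all genes tested. Of 24 other genes of GPI-anchor synthesis, the pathway of Pigz, 0 passed in either direction in limma (1 at an unadjusted p under 0.05), with a median log2 change of -0.05 and a range of -0.26 to 0.39. The one with the smallest adjusted p was Pigk, the catalytic subunit of the transamidase that attaches the anchor to proteins, at 23.3, 21.6 and 21.3 FPKM in crush 1 to 3, against 25.0, 24.3 and 25.2 FPKM in sham 1 to 3 (log2 change -0.16, adjusted p = 0.249). Of 23 genes of lipid synthesis, with regulators and thyroid hormone receptors among them, 0 passed in limma (3 at an unadjusted p under 0.05), with a median of 0.02 and a range of -0.36 to 0.31. The acetyl-CoA synthetase Acss2 came closest, at 38.4 ± 2.01 FPKM in crush and 33.2 ± 1.21 FPKM in sham (adjusted p = 0.183). Mid1ip1, the paralog of Thrsp, was at 101.9, 101.6 and 112.6 FPKM in crush, against 113.9, 140.4 and 115.0 FPKM in sham, so its groups nearly touched (-0.22, adjusted p = 0.338). Fatty acid synthase (Fasn) was at 38.4, 34.7 and 29.8 FPKM in crush, against 34.3, 19.5 and 30.7 FPKM in sham, with overlapping groups and sham 2 the lowest library (adjusted p = 0.516). The nuclear receptor gene Thra, for thyroid hormone, was at 104.9, 104.0 and 103.9 FPKM in crush, which lay between 122.3 FPKM in sham 2 and 99.2 and 94.5 FPKM in sham 1 and sham 3. Fasn and Thra were named after their values had been seen.

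Among binding partners of whirlin and other proteins of the hair bundle and of Usher syndrome, 9 genes were tested, of which 1 rose, 0 fell and 8 did not pass, where 2.38% of all genes tested rose, so that a single call in the list is not a result about it. The list had a median log2 change of -0.10, and of 0.03 without sham 2. The gene that rose was Eps8, an actin-capping protein of the tips of stereocilia, at 2.52, 2.50 and 2.51 FPKM in crush 1 to 3, against 1.63, 1.46 and 1.599 FPKM in sham 1 to 3 (limma, log2 change 0.45, SE 0.0702, adjusted p = 0.0224). Its call was lost without crush 1, 2 or 3 or sham 1 or 3 (adjusted p = 0.0732 to 0.117, within 0.00482 to 0.370 over all alternatives). The partner Pdzd7 was at 1.21, 1.34 and 1.53 FPKM in crush, against 1.19, 3.36 and 1.25 FPKM in sham, so its higher mean in sham rests on sham 2. The motor gene Myo15, at 0.573 ± 0.207 FPKM in crush and 1.04 ± 0.180 FPKM in sham, was too low to be tested. The relatives of Vstm2b did not pass either: Vstm2l was at 47.1, 52.6 and 52.2 FPKM in crush, against 61.3, 86.4 and 60.5 FPKM in sham (-0.43, adjusted p = 0.186, and 0.0494 without sham 2, within 0.0444 to 0.470 over all alternatives), and Vstm2a was at 4.29 ± 0.572 FPKM in crush and 4.84 ± 0.877 FPKM in sham (adjusted p = 0.687). Of 12 names searched in the Clec2 and Klrb1 families, to which Clec2l is related, 2 were in the table, Klrb1a and Klrb1b, and both stayed below 1 FPKM on average.

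**Figure D5:**
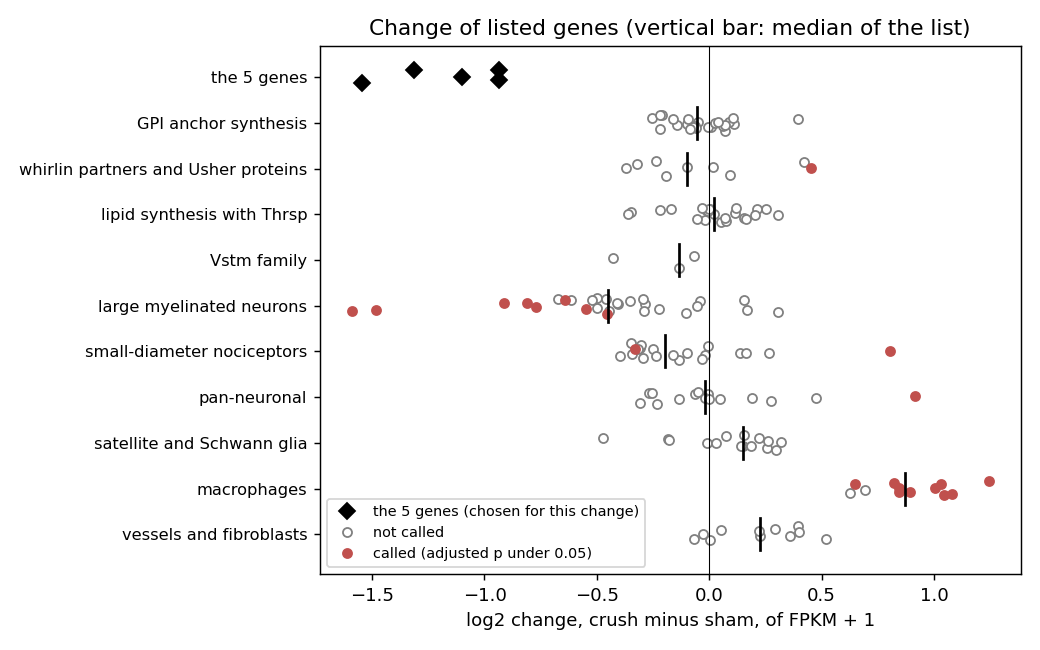
Log2 change, crush minus sham, of FPKM + 1 (horizontal axis) for the 5 genes (black diamonds) and for the genes of 10 lists (rows), filled red where called and open where not, with a bar at each list's median. The GPI and lipid lists lie around 0, while the median of the large myelinated neuron markers is -0.45 and that of the macrophage markers 0.87.

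Many other genes followed the same course over the 6 libraries. Between 131 genes for Clec2l and 203 for Vstm2b had a Pearson r of at least 0.95 with a member, on log2(FPKM + 1) and with crush and sham libraries pooled, which is a description of these 6 libraries. Closest to Clec2l were Zfp385a, Pvalb and Tceal6, with r of 0.997, 0.997 and 0.996. Zfp385a, a zinc finger gene, was at 16.4, 14.3 and 18.7 FPKM in crush 1 to 3, against 23.4, 24.8 and 24.0 FPKM in sham 1 to 3, with crush 2 lowest as in Clec2l. Closest to Vstm2b were Reep5, Degs1 and Tuba4a (r from 0.997 to 0.998), abundant genes whose differences were small, such as Reep5 at 586 ± 15.7 FPKM in crush and 659 ± 8.83 FPKM in sham. Closest to Pigz were Rptor, Wdr72 and Pdcd4 (r from 0.996 to 0.997), and of these Wdr72 was at 0.963 ± 0.206 FPKM in crush and 2.15 ± 0.106 FPKM in sham. Closest to Whrn were Slc9a5, Pdk3 and Galm (r of 0.999 each), with the sodium-proton exchanger Slc9a5 at 2.92 ± 0.245 FPKM in crush and 4.45 ± 0.297 FPKM in sham. Among the genes closest to Thrsp were 8430408G22Rik and Dync2h1, with r of 0.997 and 0.996. Among the members themselves, r ran from 0.795 for Clec2l with Pigz to 0.978 for Clec2l with Vstm2b. High values follow in large part from the choice of genes that were all lower in crush. Only Vstm2b and Thrsp ranked the libraries in the same order within both groups.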

How the data were processed

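RNA-seq of 3 crush and 3 sham libraries was analysed, grouped by the labels. Expression was deposited by the authors as FPKM per isoform and library, with an interval and a status, and as pooled group estimates with a fold change on the log2 scale (held here as a score, since it contains placeholders for infinite values), and p- and q-values. TopHat 1.3.2, Cufflinks 1.1.0, Cuffdiff 1.2.1 and mm9 are named, with no order, in the submitters' processing notes. Per the labels' protocols 500 ng of RNA was used for each poly-A selected library, and the barcoded libraries were mixed before sequencing. The authors' exon file gave positions, lengths and strands. No source used here says that strand was kept.

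The isoform suffix was removed from names and FPKM summed per gene. Genes with a mean of at least 1 FPKM were fitted on the log2(FPKM + 1) scale by limma 3.58.1, run under R 4.3.3 (mean-variance trend, 2-sided, Benjamini-Hochberg over 12289 genes, threshold 0.05). The fit was also run on simulated data, with independent noise of the same spread in every library. Such data hold no deviating library like sham 2, so they cannot test the calls made here. FPKM keeps no read counts, so no counting interval was computed; adding 1 understates changes of low genes. Python 3.11.15 with numpy 2.4.6 and pandas 2.3.3 made the tables, and matplotlib 3.10.9 the figures. Alternatives were another pseudocount (0.1), scaling, filter, isoform set, sample weights, a replicate block and each library left out. Members and lists were chosen with earlier results of these data known. Genes named were the members, their isoforms of at least 0.5 FPKM, genes sharing their exons, from each list the 2 risers and 2 fallers of smallest adjusted p or else the gene of smallest adjusted p, Nefh, Pvalb, Vstm2a, Vstm2l and Mid1ip1, and the 3 genes of highest Pearson r with each member; others named were picked after their values were seen, and some genes that the rule covers are not reported here.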

Additional observations from a re-analysis of the deposited data

How the results depend on the processing

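The log2 changes of the 5 genes stayed negative under every alternative for which they were compared. With a library left out or the other pseudocount that sign was fixed in advance, since the groups did not overlap in these genes chosen for their decrease. The replicate block cannot move a log2 change in this balanced design. Leaving out isoforms with a status other than OK removed none of theirs. The log2 changes moved by less than the spread between replicates, except for Pigz with a pseudocount of 0.1 (-1.93). The 5 genes were not compared under sample weights or without the filter on low values. Leaving out each library gave -1.27 to -0.90 (Clec2l), -1.42 to -1.15 (Vstm2b), -1.68 to -1.30 (Pigz), -1.01 to -0.83 (Whrn) and -1.05 to -0.85 (Thrsp). From isoforms with a reference identifier no value could be had for Vstm2b and Pigz. The 464 called genes, 171 of them lower, became 53 to 1174, with 10 to 567 lower, when a library was left out (1174 and 567 without sham 2), 67 and 15 from reference isoforms alone and 1429 and 695 with sample weights, whose estimation stopped before its tolerance. The sample weights ran from 0.162 (sham 2) to 2.86 (crush 1). With the replicate number as a block 50 genes were called, 5 of them lower. The deviations of same-numbered libraries correlated at 0.37, -0.31 and -0.49, and not every library correlated best with its own number. With 3 libraries in each group, these values cannot tell whether the numbers pair the libraries.

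Among lists, leaving out a library gave 0 to 2 called genes of whirlin partners (1 in full), 0 to 1 of the Vstm family (0), 0 to 20 of large myelinated neurons (8), 0 to 3 of nociceptors (2), 0 to 4 of pan-neuronal markers (1), 0 to 2 of glia (0), 5 to 12 of macrophages (10) and 0 to 2 of vessels and fibroblasts (0); GPI and lipid genes had 0 throughout all settings. With the replicate block the counts were 0 for whirlin partners, large myelinated neurons, nociceptors and pan-neuronal markers and 3 for macrophages. With sample weights they were 2, 1, 21, 6, 5, 4 and 2, in the order above without macrophages. Reference isoforms alone gave 0 whirlin partners, 1 large myelinated marker, 0 nociceptor markers and 6 macrophage markers. Upper-quartile and quantile scaling each gave 2 pan-neuronal genes, and quantile scaling 2 glial genes. Among the list genes that the naming rule chose, the log2 change of Vstm2a reversed from reference isoforms alone (0.13) and passed in neither setting; list genes named after their values were seen were not refitted under the alternatives. The cause of these shifts was not tested. Depth is unknown, so the precision of low values rests on the deposited intervals.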
